A study of Mus musculus with 6 samples.

Results

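Nitric oxide and the natriuretic peptides relax blood vessels through the same second messenger, cyclic GMP. Nitric oxide made by the endothelium activates soluble guanylyl cyclase inside vascular smooth muscle cells (VSMCs), whereas the signaling natriuretic peptide receptors carry a guanylyl cyclase of their own in the membrane. Cyclic GMP then activates protein kinase G, which lowers calcium and the calcium sensitivity of the contractile apparatus, and phosphodiesterases break the messenger down. The 10 genes described here are *Nos3*, the endothelial nitric oxide synthase, *Gucy1a1* and *Gucy1b1*, the subunits of soluble guanylyl cyclase, *Npr1*, *Npr2* and *Npr3*, the natriuretic peptide receptors, *Prkg1*, protein kinase G, and the phosphodiesterase genes *Pde5a*, *Pde3a* and *Pde1a*. They were chosen by symbol for their known roles and were all found among the 55426 genes of the deposited expression table.

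Abdominal aortas came from male C57BL/6J mice, 3 *Prdm16*SMKO (*Prdm16* fl/fl *Myh11*-CreERT2) and 3 control mice described by the study as wild-type with *Myh11*-CreERT2, so that both groups carried the Cre. The inducible Cre is driven by the VSMC gene *Myh11* and sits on the Y chromosome, so that the deletion is directed to VSMCs and not to the endothelial or adventitial cells that a whole aorta also holds. Tamoxifen was given to male mice at 8 to 10 weeks of age by gavage for 5 days (75 mg/kg/day), with no statement for each group, and aortic RNA was isolated 2 weeks later. Polyadenylated RNA of each aorta was sequenced as 1 library, and expression is given as TPM (a length-normalized transcript abundance), which allows levels of different genes in a library to be compared.

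In *Prdm16*SMKO aortas, *Prdm16*, a transcriptional regulator, averaged 21.1 ± 6.46 TPM (SD, n = 3) against 33.7 ± 3.04 TPM (n = 3) in control aortas, and the libraries of the groups did not overlap (log2 fold change -0.70, limma adjusted p = 0.376). Cell type markers also differed between libraries. Of 10 VSMC markers 8 had lower means in *Prdm16*SMKO aortas, and their summed level was 15969 to 24712 TPM against 20317 to 33368 TPM. Among endothelial markers 8 of 10 had higher means, with summed levels of 346 to 579.6 TPM against 307 to 386 TPM, and 7 of 8 macrophage markers had higher means, with 110.8 to 201 TPM against 70.8 to 110.4 TPM. *Prdm16*SMKO replicate 2 had the highest endothelial and erythroid sums. Replicate 1 had the highest neuron or Schwann cell sum (277 TPM, against 11.6 to 78.6 TPM in control libraries). Replicate 3 had the highest adipocyte sum (2395 TPM, against 489 to 967 TPM). All 8 immediate-early genes had lower means in *Prdm16*SMKO aortas. Of these, 4 were called lower at a limma adjusted p under 0.05, against 0.171% of all genes tested. In whole aorta, fewer cells of a type and less RNA per cell cannot be told apart.

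The 10 genes were all above the expression minimum and spanned a range from the middle to the upper part of the transcriptome. In control aortas, *Npr1* had the highest mean, 94.4 ± 22.6 TPM (SD, n = 3), above 94.5% of the 15775 genes tested, followed by *Gucy1b1* (77.0 ± 12.9 TPM) and *Gucy1a1* (66.7 ± 8.59 TPM). *Pde3a* (48.1 ± 7.18 TPM), *Npr2* (41.7 ± 6.83 TPM), *Prkg1* (31.2 ± 5.44 TPM) and *Pde5a* (30.3 ± 4.67 TPM) came next, and *Pde1a* (19.0 ± 1.97 TPM), *Nos3* (10.2 ± 2.83 TPM) and *Npr3* (9.38 ± 1.65 TPM) were the lowest. Neighbors in this order were separated by library ranges that did not overlap only between *Gucy1a1* and *Pde3a*, between *Pde5a* and *Pde1a* and between *Pde1a* and *Nos3*. *Prkg1* and *Pde5a* stood at nearly the same level, with *Prkg1* above in 2 of 3 control libraries.

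The order was different in *Prdm16*SMKO aortas. *Gucy1b1* took rank 1 with 98.0 ± 9.27 TPM (SD, n = 3), ahead of *Npr1* with 74.8 ± 5.33 TPM in all 3 libraries and without overlap. *Pde5a* moved from rank 7 to rank 4 with 49.1 ± 4.81 TPM, just ahead of *Pde3a* with 42.4 ± 6.23 TPM, although the library ranges of these neighbors overlapped.

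**Figure D1:**
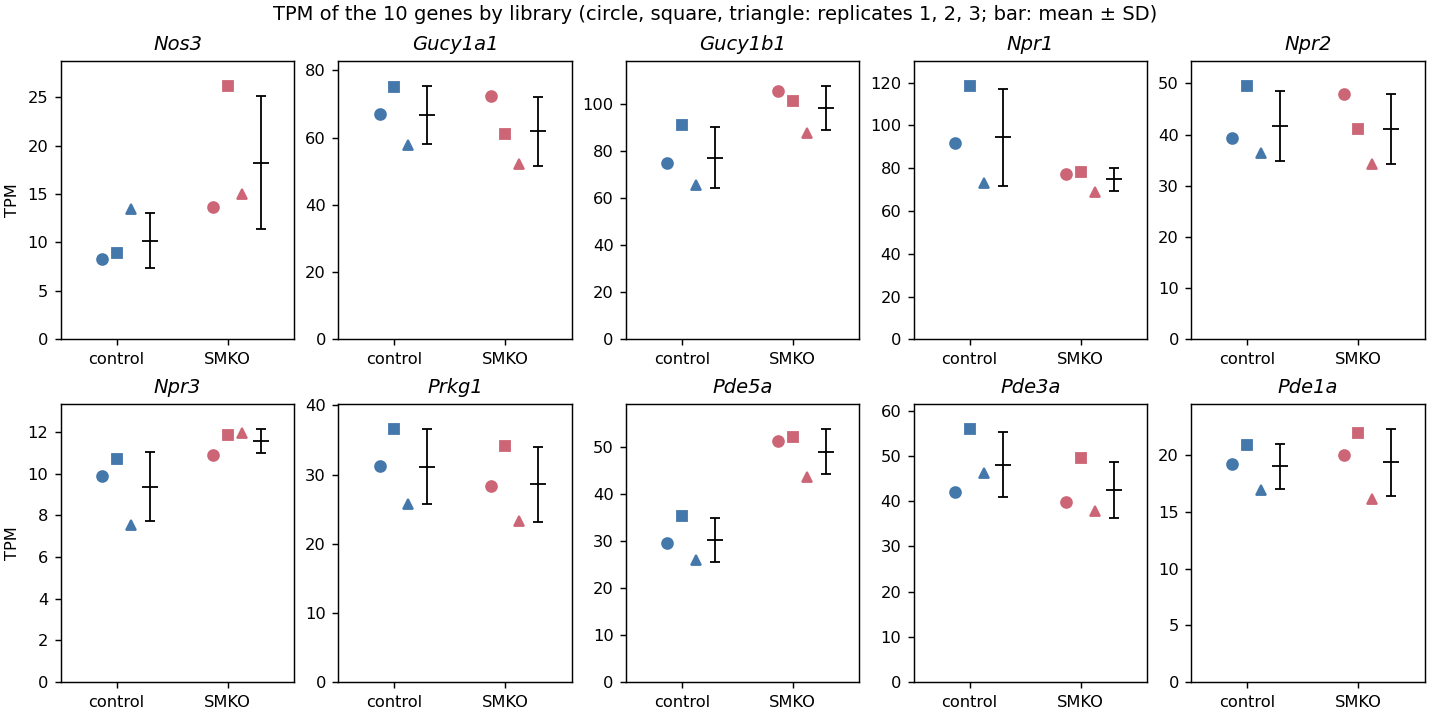
TPM of each gene in the 3 control and 3 Prdm16SMKO (SMKO) libraries, each panel on its own linear axis from 0, with points for libraries and bars for mean ± SD. The groups are apart for Pde5a (26.0 to 35.3 against 43.6 to 52.3 TPM) and, by small margins, for Nos3 and Npr3, and overlap for the other 7 genes.

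None of the 10 genes passed the test across all genes (limma on log2(TPM + 0.5), Benjamini-Hochberg adjusted p under 0.05), by which 56 of 15775 genes, or 0.355%, were called, 0.184% higher and 0.171% lower in *Prdm16*SMKO aortas. At an unadjusted p under 0.05, which 8.74% of all genes reached, 2 of the 10 genes were found, *Nos3* and *Pde5a*, both higher. Of the 16 alternative settings, median-of-ratios scaling called 1 of the 10 genes, *Pde5a*, array weights called 2, *Pde5a* and *Nos3*, and the others called 0. *Nos3*, *Npr3* and *Pde5a* had groups that did not overlap, all with the *Prdm16*SMKO libraries above, whereas 12.8% of all genes had groups that did not overlap in either direction and 7.02% in this one. Log2 fold changes of the 10 genes ran from -0.31 to 0.78, 5 positive and 5 negative, with a median of -0.00095, and the median over all genes tested was 0.02. With 3 libraries per group, the smallest p of the exact permutation test is 0.1.

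**Figure D2:**
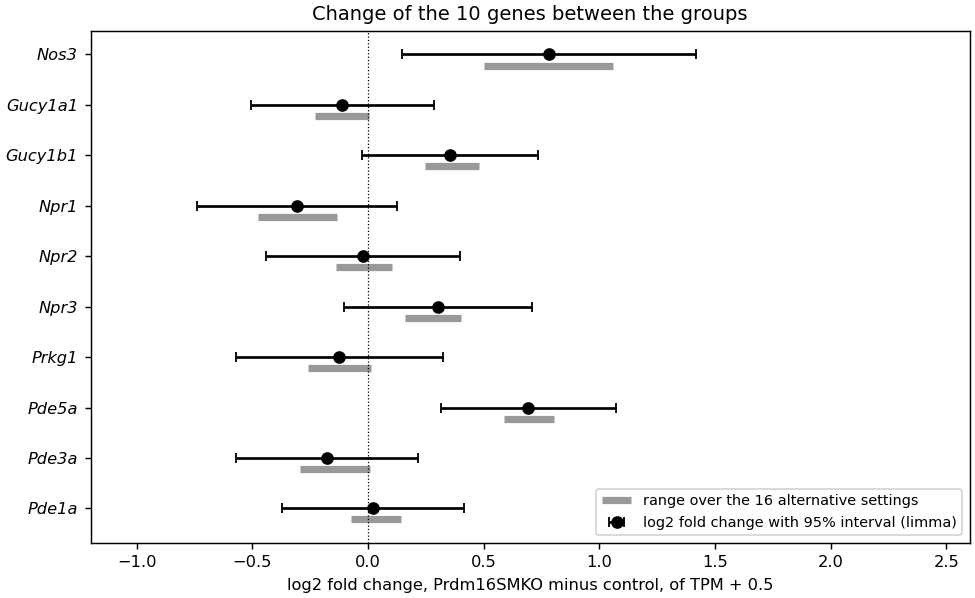
Log2 fold change of each gene, Prdm16SMKO minus control, on log2(TPM + 0.5), with the 95% interval of limma (n = 3 per group) and, in gray, the range over 16 alternative settings. The intervals of Nos3 (0.15 to 1.42) and Pde5a (0.31 to 1.07) lie above 0, and those of the other 8 genes include 0.

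Much of the spread was shared by the genes within a group. Control replicate 2 had the highest value of its group for 9 of the 10 genes, and control replicate 3 the lowest for 8. Among *Prdm16*SMKO libraries, replicate 3 was the lowest for 8 genes and replicate 2 the highest for 6. *Nos3* was the exception among controls, being highest in replicate 3. Median-of-ratios size factors, taken over genes above 0 in all libraries, were 1.01, 1.13 and 0.864 in control replicates 1 to 3. In *Prdm16*SMKO replicates 1 to 3 they were 1.05, 1.04 and 0.930. Replicate 3 was thus the lowest of each group across the transcriptome too, and the shared order was not particular to the 10 genes. A ratio of genes within a library does not carry such a shared shift, and 14 ratios were therefore computed as well. Groups did not overlap for 19.6% of all ratios of 2 tested genes, against 12.8% of single genes.

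*Nos3* (GRCm38 chromosome 5, 24364810 to 24384474, plus strand) makes nitric oxide in endothelial cells, which the Cre does not target. Its level was 8.27, 8.88 and 13.4 TPM in the control aortas, in the order of replicates 1 to 3 that is kept from here on, and 13.7, 26.1 and 15.0 TPM in the *Prdm16*SMKO aortas. The groups were separated only by the narrow step between the highest control and the lowest *Prdm16*SMKO library, and *Prdm16*SMKO replicate 2 stood well above the rest. The fold change was 1.72 (log2 0.78, SE 0.28), with an adjusted p of 0.448 by limma and an exact permutation p of 0.1. Without *Prdm16*SMKO replicate 2 the log2 fold change was 0.50, and with array weights, which down-weight noisier libraries, it was 1.06 with a limma adjusted p of 0.0421.

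The endothelial marker *Pecam1*, an adhesion molecule of endothelial junctions, was 68.7, 72.7 and 99.6 TPM in the control aortas and 81.3, 199.98 and 86.9 TPM in the *Prdm16*SMKO aortas, and so had its highest values in the same library of each group as *Nos3*. *Nos3* relative to *Pecam1* was 0.120, 0.122 and 0.135 in control libraries and 0.168, 0.131 and 0.172 in *Prdm16*SMKO libraries, and the groups overlapped (fold 1.22, exact permutation p = 0.2). Relative to *Cdh5*, the endothelial cadherin, the fold was 1.39 and the groups overlapped as well (exact permutation p = 0.3). The 10 endothelial markers did not all move alike, with 8 higher and 2 lower in mean. *Vwf* had a fold of 1.87, whereas *Egfl7* had 0.939 and *Erg* 0.709, the last with groups that did not overlap. The part of endothelial content in the *Nos3* difference was not tested. Annotated exons of the antisense gene *Gm15587* share 1040 bases with *Nos3*, at a mean of 1.01 TPM, and since no source used here states that strand was kept, reads of the shared bases cannot be told apart.

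*Gucy1a1* and *Gucy1b1* encode the alpha and beta subunits that pair to form the main nitric oxide receptor of smooth muscle, and lie next to each other on the minus strand of chromosome 3 (GRCm38, 82092427 to 82145789 and 82032006 to 82074689), 17.7 kb apart. The subunits work as a pair, and the bases before their start sites are shown. Those of *Pde5a* (chromosome 3, 122728947 to 122859374, plus strand), the gene with the lowest p of the 10, are shown as well. Any link of these bases to the expression values was not tested. The sequences are from RefSeq on GRCm38.p6, 5′ to 3′ on the strand of the gene. Windows of 250 bases before the RefSeq start were searched, and what is printed are the bases that also lie before the first base of the GENCODE M21 gene, which are 111 for *Gucy1a1*, 250 for *Gucy1b1* and 39 for *Pde5a*. Capitals mark a GC box (GGGCGG on either strand) or a CCAAT box (CCAAT on either strand, so that ATTGG is its reverse).
Gucy1a1, chr3:82145790-82145900, minus strand: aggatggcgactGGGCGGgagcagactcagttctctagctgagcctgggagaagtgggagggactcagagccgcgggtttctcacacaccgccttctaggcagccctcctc
Gucy1b1, chr3:82074712-82074961, minus strand: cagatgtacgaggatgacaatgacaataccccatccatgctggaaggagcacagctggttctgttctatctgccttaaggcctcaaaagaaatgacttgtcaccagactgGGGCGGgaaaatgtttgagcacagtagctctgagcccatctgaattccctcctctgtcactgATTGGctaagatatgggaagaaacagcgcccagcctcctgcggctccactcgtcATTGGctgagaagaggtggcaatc
Pde5a, chr3:122728908-122728946, plus strand: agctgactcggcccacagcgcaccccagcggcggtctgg

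The window of *Gucy1b1* held 1 GC box and 2 CCAAT boxes at a GC content of 51.2%, and the printed *Gucy1a1* start had 1 GC box and no CCAAT box in its window at 64.0%. A second RefSeq start of *Gucy1a1*, whose window lies wholly inside the GENCODE M21 gene (chr3:82145074-82145323), had 0 of either box at 61.2%. *Pde5a* had 1 GC box at 68.4%, within the 211 bases of its window that lie inside the GENCODE M21 gene. A GC box was found in 32.7% and a CCAAT box in 33.8% of all 32851 RefSeq windows of this length. Of the 10 genes 8 had 13 windows, and each of these boxes was in 6 of the 13. The CArG box, the binding motif of serum response factor in many contractile genes, was in 1.47% of all windows and in 0 of the 13. A TATA box (TATAAA on either strand) was in 12.4% of all windows and in 2 of the 13, both of *Pde1a*. *Nos3* and *Pde3a* had no window in the table used.

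*Gucy1a1* measured 67.1, 75.0 and 57.9 TPM in the control aortas and 72.5, 61.0 and 52.2 TPM in the *Prdm16*SMKO aortas. The groups overlapped over most of their range (fold 0.926, log2 -0.11, 95% interval -0.51 to 0.29, limma adjusted p = 0.951). *Gucy1b1* measured 74.7, 90.9 and 65.5 TPM in the control aortas and 105, 101 and 87.6 TPM in the *Prdm16*SMKO aortas. Here *Prdm16*SMKO replicates 1 and 2 were above every control and only replicate 3 fell inside the control range (fold 1.28, log2 0.35, 95% interval -0.03 to 0.73, limma adjusted p = 0.625).

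Unlike either subunit, the ratio of the subunits had groups that did not overlap, as did 19.6% of all ratios of 2 tested genes. The *Gucy1a1* to *Gucy1b1* ratio was 0.898, 0.826 and 0.884 in control libraries and 0.689, 0.602 and 0.596 in *Prdm16*SMKO libraries. All control libraries were above all *Prdm16*SMKO libraries, and each group was tight (0.869 ± 0.0386 against 0.629 ± 0.0517, SD, n = 3). The difference was -0.47 on the log2 scale, a fold of 0.724, with the smallest p the exact permutation test can give, 0.1, and an adjusted p of 0.156 over the 14 ratios by the Benjamini-Hochberg method. *Gucy1a2*, which encodes another alpha subunit, was low, at 3.38 ± 0.577 TPM in control and 4.51 ± 0.578 TPM in *Prdm16*SMKO aortas (limma adjusted p = 0.721).

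**Figure D3:**
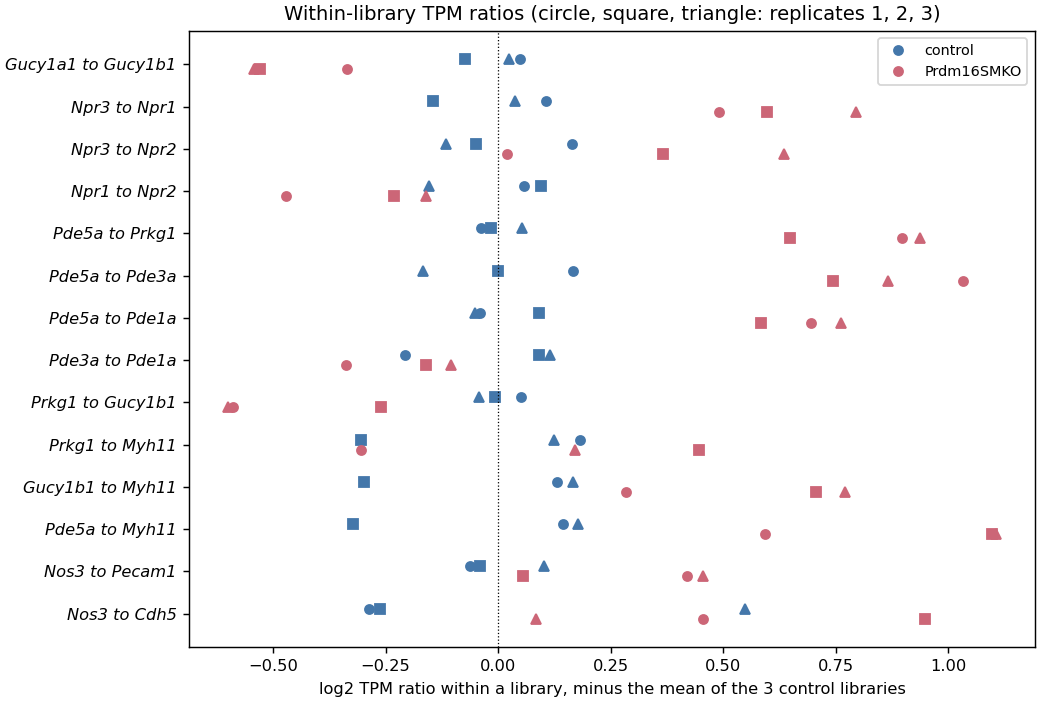
Log2 of 14 within-library TPM ratios, each minus the mean of its 3 control libraries, with 1 point per library. The groups do not overlap for 9 ratios (19.6% of all ratios of 2 tested genes), among them Gucy1a1 to Gucy1b1 (fold 0.724) and the 4 ratios with Pde5a above (folds 1.59 to 1.90).

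*Npr1* (GRCm38 chromosome 3, 90450591 to 90465866, minus strand) encodes the receptor of atrial and B-type natriuretic peptides and *Npr2* (chromosome 4, 43631935 to 43651244, plus strand) that of C-type natriuretic peptide, both with a guanylyl cyclase domain. *Npr1* measured 91.7, 118 and 73.2 TPM in the control aortas and 77.4, 78.3 and 68.7 TPM in the *Prdm16*SMKO aortas. The *Prdm16*SMKO libraries lay close together around the lowest control, and the control libraries were spread widely above (fold 0.807, log2 -0.31, 95% interval -0.74 to 0.12, limma adjusted p = 0.774). *Npr2* measured 39.3, 49.4 and 36.4 TPM against 47.9, 41.1 and 34.3 TPM, with almost the same mean in both groups (log2 -0.02, 95% interval -0.44 to 0.40, limma adjusted p = 0.994). Exons of *Npr2* share 266 bases with the opposite-strand gene *Gm12473*, listed at a mean of 10.6 TPM. Exons of *Npr1* (559 bases), *Npr3* (321), *Pde3a* (741) and *Pde5a* (55) also share bases with opposite-strand genes, at means of 0.165 to 2.02 TPM. *Nos3* shares 294 more with *Atg9b* (mean 0.277 TPM). Reads of these shared bases cannot be told apart either.

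*Npr3* (chromosome 15, 11839896 to 11907287, minus strand) encodes the clearance receptor, which has no cyclase and removes natriuretic peptides from the circulation and tissue. It measured 9.89, 10.7 and 7.53 TPM in the control aortas and 10.9, 11.9 and 11.9 TPM in the *Prdm16*SMKO aortas. All *Prdm16*SMKO libraries were above all controls, by a small step between *Prdm16*SMKO replicate 1 and control replicate 2 (fold 1.23, log2 0.30, SE 0.18, limma adjusted p = 0.749, exact permutation p = 0.1). Without control replicate 3 the log2 fold change was 0.16.

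Among the ratios of these receptors, that of *Npr3* to *Npr1* differed most between the groups. *Npr3* relative to *Npr1* was 0.108, 0.0906 and 0.103 in control libraries and 0.141, 0.152 and 0.174 in *Prdm16*SMKO libraries. The groups did not overlap, and the fold was 1.53 (log2 0.61, exact permutation p = 0.1, adjusted p = 0.156). *Npr1* relative to *Npr2* was 2.33, 2.39 and 2.01 against 1.62, 1.91 and 2.003, with the groups apart by the last step only (fold 0.820, exact permutation p = 0.1). *Npr3* relative to *Npr2* overlapped (fold 1.25, exact permutation p = 0.2). Of the summed TPM of the 3 receptors, *Npr1* made up 64.6% ± 1.93 in control and 58.8% ± 1.67 in *Prdm16*SMKO aortas (SD, n = 3), and *Npr3* 6.48% ± 0.507 and 9.15% ± 1.20.

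*Prkg1* (chromosome 19, 30564489 to 31765033, minus strand) encodes cyclic GMP-dependent protein kinase I, the main effector of cyclic GMP in smooth muscle. It measured 31.2, 36.6 and 25.7 TPM in the control aortas and 28.3, 34.2 and 23.3 TPM in the *Prdm16*SMKO aortas. The groups covered nearly the same range (fold 0.918, log2 -0.12, 95% interval -0.57 to 0.32, limma adjusted p = 0.952). Relative to *Myh11*, the smooth muscle myosin heavy chain, *Prkg1* also overlapped between the groups (fold 1.08, exact permutation p = 0.6). Relative to *Gucy1b1*, it was 0.418, 0.402 and 0.392 in control libraries and 0.269, 0.337 and 0.266 in *Prdm16*SMKO libraries. Here the *Prdm16*SMKO values all lay under the control values (fold 0.718, exact permutation p = 0.1, adjusted p = 0.156).

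*Pde5a* encodes the cyclic GMP-specific phosphodiesterase that sildenafil inhibits, and had the lowest p of the 10 genes. It measured 29.7, 35.3 and 26.0 TPM in the control aortas and 51.4, 52.3 and 43.6 TPM in the *Prdm16*SMKO aortas. The lowest *Prdm16*SMKO library was above the highest control. The fold change was 1.62 (log2 0.69, SE 0.17, 95% interval 0.31 to 1.07), with an unadjusted p of 0.0026 and an adjusted p of 0.186 by limma, and an exact permutation p of 0.1. It kept its direction under all 16 alternatives (log2 0.59 to 0.81), with limma adjusted p-values from 0.0158 to 0.539 that were under 0.05 with array weights (0.0158) and with TPM rescaled by median-of-ratios size factors (0.0202). The study lists *Pde5a*, under a term for apoptosis, among its upregulated genes, which it called at an adjusted p under 0.05. The main fit here did not call it from the deposited TPM (limma adjusted p = 0.186). Its direction in the same libraries is not independent evidence.

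*Pde3a* (chromosome 6, 141249269 to 141507448, plus strand) encodes a phosphodiesterase of cyclic AMP that cyclic GMP inhibits. It measured 42.0, 56.0 and 46.3 TPM in the control aortas and 39.9, 49.5 and 37.9 TPM in the *Prdm16*SMKO aortas, and *Prdm16*SMKO replicates 1 and 3 were below every control while replicate 2 was inside the control range (fold 0.884, log2 -0.18, 95% interval -0.57 to 0.22, limma adjusted p = 0.896). *Pde1a* (chromosome 2, 79834453 to 80129458, minus strand) encodes a phosphodiesterase activated by calcium and calmodulin. It measured 19.2, 20.9 and 16.9 TPM against 20.0, 22.0 and 16.2 TPM, and the ranges of the groups nearly coincided (log2 0.02, 95% interval -0.37 to 0.41, limma adjusted p = 0.994).

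The share of *Pde5a* among the phosphodiesterases was higher in every *Prdm16*SMKO library. *Pde5a* relative to *Pde3a* was 0.707, 0.630 and 0.561 in control libraries and 1.29, 1.06 and 1.15 in *Prdm16*SMKO libraries, so that *Pde5a* was the lower of the pair in every control and the higher in every *Prdm16*SMKO library (fold 1.83, exact permutation p = 0.1, adjusted p = 0.156). Relative to *Pde1a*, *Pde5a* was 1.55, 1.69 and 1.53 against 2.57, 2.38 and 2.69, again without overlap (fold 1.59, exact permutation p = 0.1). *Pde3a* relative to *Pde1a* overlapped (fold 0.871, exact permutation p = 0.3). Of the summed TPM of these 3 genes, *Pde5a* made up 32.7%, 31.4% and 29.1% in control libraries and 46.2%, 42.2% and 44.6% in *Prdm16*SMKO libraries. *Pde3a* had the largest share in every control (49.3% ± 2.90, SD, n = 3) and 38.2% ± 2.17 in *Prdm16*SMKO aortas, where *Pde5a* had the largest in every library. Such shares follow from the ratios and were given no test of their own.

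**Figure D4:**
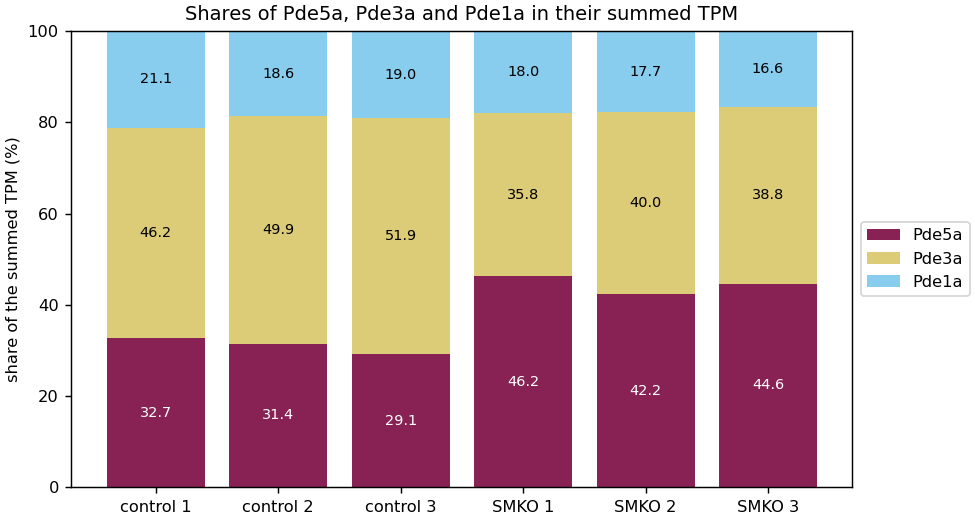
Share of Pde5a, Pde3a and Pde1a in their summed TPM, in percent, with 1 bar for each of the 3 control and 3 Prdm16SMKO (SMKO) libraries. Pde5a takes 29.1% to 32.7% in control and 42.2% to 46.2% in Prdm16SMKO libraries, Pde3a 46.2% to 51.9% and 35.8% to 40.0%, and Pde1a 16.6% to 21.1%.

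The ratio of *Pde5a* to the kinase gene *Prkg1* varied little among control libraries. It was 0.951, 0.965 and 1.01 in control libraries and 1.82, 1.53 and 1.87 in *Prdm16*SMKO libraries. The phosphodiesterase transcript was close to that of the kinase in all controls and above it in all *Prdm16*SMKO libraries (fold 1.76, log2 0.82, exact permutation p = 0.1, adjusted p = 0.156). Relative to *Myh11*, whose own groups overlapped (2303 ± 825 against 1931 ± 522 TPM, SD, n = 3), *Pde5a* had a fold of 1.90 and *Gucy1b1* a fold of 1.5, both without overlap (exact permutation p = 0.1). In all, 9 of the 14 ratios had groups that did not overlap, and 19.6% of all ratios of 2 tested genes did. The 14 ratios share genes and are not independent, and their adjusted p-values ran from 0.156 to 0.6.

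The wider pathway was read from a list of 52 genes written from general knowledge, of which 36 were tested, 3 were at 0 in all libraries and the untested genes reached at most 0.72 TPM in any library. Of the 36, 0 were called higher (0.184% of all genes) and 1 lower (0.171%) by limma, and 3 were higher and 2 lower at an unadjusted p under 0.05 (8.74% of all genes in either direction). In the list, 20 had positive and 16 negative fold changes, and the median log2 fold change was 0.07, against 0.02 for all genes. Groups did not overlap for 9 of the 36, 5 of them higher in *Prdm16*SMKO aortas, against 12.8% and 7.02% of all genes.

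*Nos1* and *Nos2*, the neuronal and inducible synthases, were at no more than 0.17 and 1.01 TPM in any library, so that *Nos3* was the most abundant synthase in all 6. Of 12 tested genes of nitric oxide synthesis 7 had positive and 5 negative fold changes (median log2 0.04), and the most abundant, *Cav1*, the caveolar scaffold that holds the endothelial synthase inactive, was at 423 ± 68.4 TPM in control and 409 ± 55.8 TPM in *Prdm16*SMKO aortas (SD, n = 3). The natriuretic peptide genes were almost silent, with *Nppa* at no more than 0.42 TPM, *Nppb* listed at 0 in all libraries and *Nppc* above 0 only in *Prdm16*SMKO replicate 1 (0.47 TPM), values that were picked out after they were seen. *Furin*, a protease that processes natriuretic peptide precursors, was at 32.7 ± 4.88 TPM against 25.2 ± 1.16 TPM (log2 -0.36, limma adjusted p = 0.588). Its groups did not overlap, which held for 12.8% of all genes.

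Among further genes of cyclic GMP breakdown and export, all 7 tested had positive fold changes, with a median log2 of 0.39, none was called by limma, and 3 had groups that did not overlap, all higher in *Prdm16*SMKO aortas (7.02% of all genes). *Pde1b*, a calcium- and calmodulin-dependent phosphodiesterase, was at 1.02 ± 0.113 TPM in control and 2.34 ± 0.327 TPM in *Prdm16*SMKO aortas (SD, n = 3; log2 0.90, SE 0.24, limma adjusted p = 0.266). *Pde2a*, a phosphodiesterase that cyclic GMP stimulates, was at 5.60 ± 2.48 TPM against 8.93 ± 0.768 TPM (log2 0.72, SE 0.30, limma adjusted p = 0.549), and 0.36 without control replicate 1. The most abundant of this group, *Abcc5*, which exports cyclic GMP, was at 26.7 ± 6.37 TPM against 29.7 ± 7.15 TPM (log2 0.15, limma adjusted p = 0.953). The macrophage marker sums of the *Prdm16*SMKO libraries were all above those of the control libraries, but at the closest only by 110.8 against 110.4 TPM. The endothelial sums overlapped between the groups, and the adipocyte sum was highest in *Prdm16*SMKO replicate 3, as given above. The part of these cells in the values was not tested.

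Of 12 tested kinases and targets, 4 had positive and 8 negative fold changes (median log2 -0.11). *Hspb6*, the small heat shock protein HSP20 that cyclic nucleotide-dependent kinases phosphorylate during relaxation, was the gene called, with 124, 184 and 113 TPM in the control aortas and 59.8, 49.6 and 45.4 TPM in the *Prdm16*SMKO aortas. The groups were far apart (fold 0.376, log2 -1.41, SE 0.21, limma adjusted p = 0.0386), but the adjusted p was 0.0889 to 0.128 when any library except *Prdm16*SMKO replicate 1 was left out. The study lists *Hspb6* among its downregulated genes (adjusted p under 0.05 in the study), also under a term for apoptosis. Its direction in these libraries is therefore not independent evidence. *Kcnmb1*, the beta subunit of the calcium-activated potassium channel that protein kinase G opens, was at 68.1 ± 17.8 TPM against 41.5 ± 8.72 TPM (log2 -0.70, limma adjusted p = 0.376), and *Rgs2*, a brake on G protein signaling that the kinase activates, at 11.8 ± 1.54 TPM against 20.2 ± 5.38 TPM (log2 0.72, limma adjusted p = 0.353). Both had groups that did not overlap, as 12.8% of all genes did. *Csrp2*, a LIM protein of smooth muscle and a kinase substrate, was the most abundant, at 1435 ± 228 TPM against 1888 ± 235 TPM (log2 0.40, limma adjusted p = 0.611). VSMC marker sums overlapped between the groups, with 8 of 10 markers lower in mean in *Prdm16*SMKO aortas, and their part in the values of *Hspb6* and *Kcnmb1* was not tested.

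**Figure D5:**
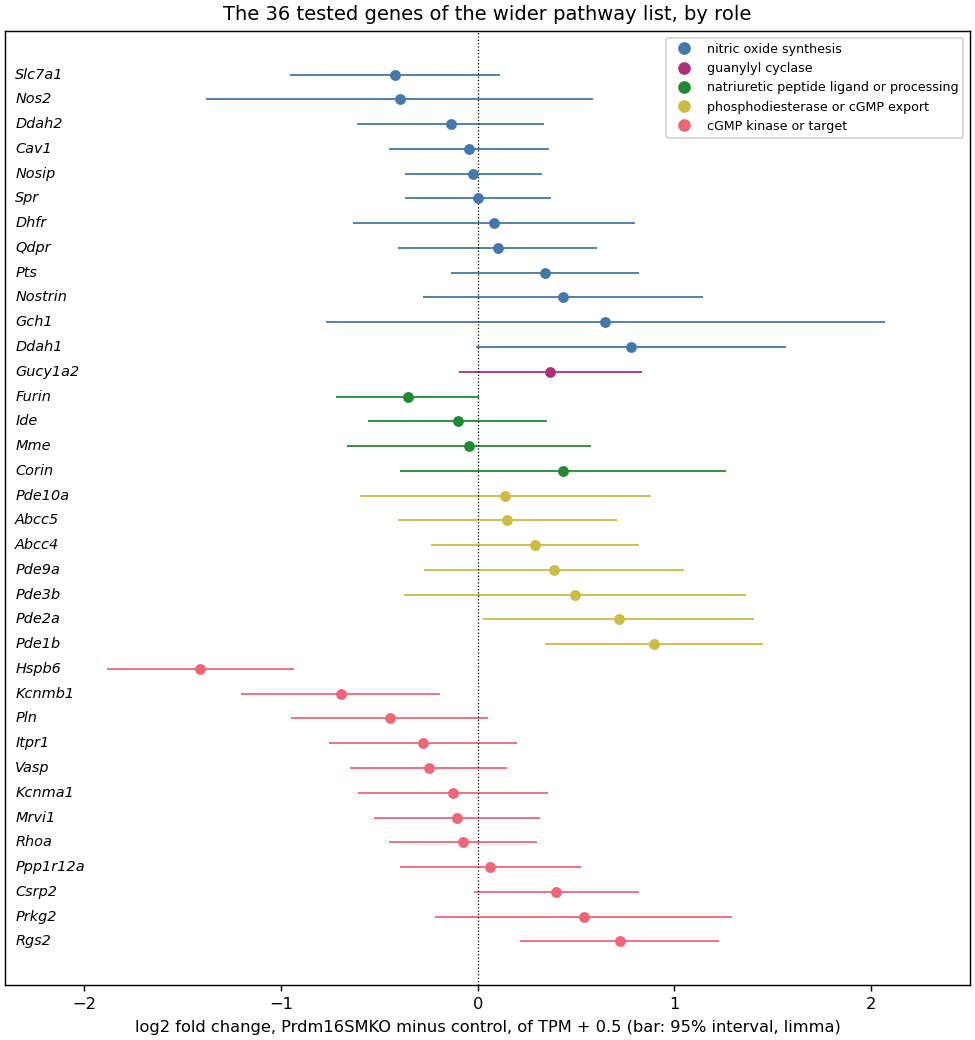
Log2 fold change, Prdm16SMKO minus control, on log2(TPM + 0.5), of the 36 tested genes of the wider list, colored by role, with 95% intervals of limma (n = 3 per group). Hspb6 (-1.41) is the gene called. All 7 points for further phosphodiesterases and export are right of 0, but of these only the intervals of Pde1b and Pde2a lie above 0.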

How the data were processed

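Abdominal aortas of 3 control and 3 *Prdm16*SMKO mice were sequenced by the authors as 151 bp paired reads (40 M pairs per library on average). The authors deposited TPM, rounded to 2 decimals, for 55426 genes, and the submitters' processing notes name cutadapt 2.3, STAR 2.7.8a, RSEM 1.3.3 and GRCm38 without their roles. Annotation and strand setting are not given in the sources used here, and the depth of single libraries is unknown, so that no counting error was computed. No 2 libraries were identical. Values of log2(TPM + 0.5) for the 15775 genes whose mean reached 0.5 TPM were compared with limma 3.58.1 in R 4.3.3. Variances were moderated with a trend, tests were two-sided, and genes were called at a Benjamini-Hochberg adjusted p under 0.05 over all genes. The procedure was run on simulated data with noise independent between genes. A shift shared by the genes of a library was not covered by that run. Ratios were compared by the exact two-sided permutation test on log2 of (TPM + 0.5), and printed per library as TPM ratios. Positions are from GENCODE M21. The limma p-values set the difference of group means against the spread of libraries within groups. The exact permutation p-values set it against all relabelings of the libraries.

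The 10 genes, the ratios and all lists were chosen with earlier results of these data known. All 10 genes are named, and of the wider list any gene called, any with an unadjusted p under 0.05 and the most abundant of each role. *Nos1*, *Nos2*, natriuretic peptide genes and the markers *Vwf*, *Egfl7* and *Erg* were named after their values were seen, and the shares were added then. As alternatives, the pseudocount was set to 0.1 or 1, the expression minimum was dropped or raised to 2 TPM, and the fit was repeated with median-of-ratios scaling, TPM rescaled without mitochondrial genes (15.8% to 27.4% of TPM), no variance trend, robust variance, array weights, a replicate block or 1 library left out at a time.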

Additional observations from a re-analysis of the deposited data

How the results depend on the processing

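Across all genes, the number called was 56 and became 10 with no expression minimum, 153 with median-of-ratios scaling (60 higher and 93 lower, or 39.2% higher against 51.8%), 33 with no variance trend, 112 with robust variance, 494 with array weights and 4 with the replicate block, and was 5 to 61 when 1 library was left out. Of the 10 genes, 1 was called with median-of-ratios scaling (*Pde5a*) and 2 with array weights (*Pde5a* and *Nos3*), and 0 under the other 14 alternatives. In the wider list, array weights called 2 genes higher (*Pde1b* and *Pde2a*). The number called lower was 0 with no expression minimum, without mitochondrial genes, with no variance trend and with the replicate block, and 0 to 1 when 1 library was left out. The single gene called, *Hspb6*, had a limma adjusted p of 0.164 with the replicate block. Same-numbered libraries of the groups did not vary together (correlations of -0.13, -0.11 and 0.02 over genes), so the numbers were not treated as pairs.

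Small differences changed sign. The log2 fold change of *Npr2* was 0.023 without mitochondrial genes and 0.058 with array weights, that of *Pde3a* 0.0074 and that of *Abcc5* -0.026 with array weights, and that of *Cav1* 0.0022 without mitochondrial genes. Leaving out 1 library gave ranges of -0.23 to 0.0038 for *Gucy1a1*, -0.14 to 0.10 for *Npr2*, -0.26 to 0.011 for *Prkg1*, -0.073 to 0.14 for *Pde1a*, -0.17 to 0.070 for *Cav1*, -0.058 to 0.36 for *Abcc5* and, for the log2 ratio of *Prkg1* to *Myh11*, -0.063 to 0.31. The cause was not tested. Of 319 values for single genes under the alternatives 290 kept direction and side of the threshold, 15 changed sign, 9 lost and 5 gained a call. Of 112 values for ratios 110 kept their direction. No ratio could gain or lose a call, since the smallest exact permutation p is 0.1. The depth of the libraries is unknown, and 3 libraries per group limit the precision.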

Other observations

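*Gch1*, which makes the tetrahydrobiopterin cofactor that nitric oxide synthases need, was chosen after its values were seen. Its level was 1.15, 2.03 and 1.89 TPM in the control aortas and 9.71, 2.21 and 0.89 TPM in the *Prdm16*SMKO aortas, both in the order of their replicate numbers, so that 1 library stood far above the others. The same library had the highest sum of neuron or Schwann cell markers, 277 TPM, against 11.6 to 78.6 TPM in the other 5, and the part of these cells in the *Gch1* value was not tested.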
